A study of Homo sapiens with 4 samples.

Results

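The mRNA of EIF5B, the GTPase that joins the ribosomal subunits at the end of translation initiation, was followed together with 9 mRNAs of other initiation factors, EIF5, EIF1AX, EIF2S1, EIF2S2, EIF3A, EIF3C, EIF4G1, EIF4G2 and EIF4G3. These 10 genes were taken by symbol from the 63677 genes counted in the study, and 9 of the 10 passed the filter on low counts that left 15116 tested genes. The set was chosen with earlier results of the same comparison known, and EIF5B was selected on its lower count with the anti-GAA oligonucleotide. The values of the 10 members below are therefore a description, with no test.

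The study used HCT116, an established human colorectal cancer cell line. Cells were transfected for 48 h by the labels, where the methods of the study give a shorter time for ASOs, with an antisense oligonucleotide (ASO) against GAA repeats or with a control ASO of scrambled sequence, and RNA was sequenced in 2 libraries per ASO. The anti-GAA ASO consists of 7 tandem TTC units, 21 nt in all, with 6 modified bases at each end and 9 deoxynucleotides in the centre, the part through which RNase H cuts a paired RNA. Both groups are one cell line without a genetic change, and both received an ASO. The target is a repeat carried by many RNAs, so no single targeted gene serves to check the labels.

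The 4 libraries held between 10538284 and 17894953 counts in genes, and the smallest count of a tested member in any library was 211, for EIF4G3. Of 6 epithelial markers, EPCAM, KRT8, KRT18, KRT19 and CDH1 were counted in all 4 libraries and VIL1 was at or under 0.112 counts per 1000000 counts (CPM). Of the 5 that were tested, 4 had both anti-GAA libraries under both control libraries, where 16.9% of all tested genes did. Among 6 markers of other cell types, only COL1A1 was tested, at 10.1 to 14.6 CPM, and the other 5 did not exceed 0.848 CPM in any library. The methods of the study call the libraries duplicate experiments, and the labels do not say whether these were separate cultures, so the errors and p-values measure the spread between these libraries, which may be technical. In bulk RNA, fewer cells of a type and less RNA per cell cannot be told apart.

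Translation of most mRNAs begins when the eIF4F complex, built on an eIF4G scaffold, binds the cap and, through eIF3, recruits the small ribosomal subunit with eIF2 and the initiator tRNA. The subunit scans to the start codon with the help of eIF1A, eIF5 stimulates GTP hydrolysis by eIF2 at that codon, and eIF5B then brings in the large subunit. Several of these large proteins carry stretches rich in glutamate or lysine, whose codons include GAA and AAG, so that the mRNAs can hold GAA repeats within the coding sequence.

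Runs of GAA in the mRNA sense are shown first, because they are the sequence to which the ASO was designed. They were read from GENCODE 44 on GRCh38, as the longest perfect run in any frame. In EIF5B the run was 15 nt long, in glutamate codons across the junction of exons 8 and 9, with 2 nt in the former and 13 nt in the latter (chr2:99369480-99371668, plus strand, the intron included). The EIF2S2 run was also 15 nt long, in lysine codons of exon 2 (chr20:34105498-34105512, minus strand). EIF4G1 held the longest, 17 nt in glutamate codons (chr3:184321956-184321972, plus strand, exon 10 of the MANE Select transcript, the reference transcript of a gene). EIF4G2 had 12 nt in glutamate codons (chr11:10797837-10797848, minus strand, exon 22), and EIF5 had 11 nt in glutamate codons (chr14:103340532-103340542, plus strand, exon 11). Capitals mark the run, with 6 nt on each side.
EIF5B: tgaaccAGAAGAAGAAGAAGAtactga
EIF2S2: aagaaaAAGAAGAAGAAGAAGcctttt
EIF4G1: gaaatgGAAGAAGAAGAAGAAGAggaaga
EIF4G2: actgctGAAGAAGAAGAAtcagag
EIF5: ggtggcGAAGAAGAAGAtgaaga

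The other members had shorter runs in their MANE Select transcripts. The run was 11 nt in EIF3C, 8 nt in EIF3A, EIF4G3 and EIF2S1, and 7 nt in EIF1AX, with those of EIF2S1 and EIF1AX in the 3' UTR. Of 14751 tested genes with a transcript sequence, the longest transcript of 2.54% had a run reaching 12 nt, and that of 0.637% one reaching 15 nt. EIF5B, EIF2S2, EIF4G1 and EIF4G2 were among the former and EIF5B, EIF2S2 and EIF4G1 among the latter. In any annotated transcript 3.09% had a run reaching 12 nt, and EIF4G3 was then included with 16 nt.

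A perfect run covers only part of the ASO, so every 21-nt window was also aligned without gaps to 7 tandem GAA units. The best window of EIF5B matched at 19 of 21 positions (chr2:99376403-99376423, within one exon), EIF2S2 at 20 (chr20:34105499-34105519) and EIF4G1 at 20 (chr3:184321956-184321976). Of these best windows, only that of EIF4G1 matched at all 9 positions opposite the deoxynucleotides, and those of EIF5B and EIF2S2 matched at 8. Lower-scoring windows over the 15-nt runs of EIF5B and EIF2S2 also matched at all 9 positions. EIF3D, a subunit of eIF3 outside the 10 members, held a window with the same 21 letters as that of EIF5B (chr22:36511504-36511524, minus strand). Capitals mark the matching bases.
EIF5B: GAgGAAGAAGAgGAAGAAGAA
EIF3D: GAgGAAGAAGAgGAAGAAGAA
EIF2S2: GAAGAAaAAGAAGAAGAAGAA
EIF4G1: GAAGAAGAAGAAGAAGAgGAA

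Windows that matched at 18 or more of the 21 positions numbered 6 in EIF5B, 7 in EIF4G1, 5 in EIF2S2, 2 in EIF4G2 and 1 in EIF5. EIF3C held 2 in its MANE Select transcript, with a best match of 19 of 21, and 0 in its longest transcript. The 6 windows of EIF5B lay between positions 1637 and 1804 of a transcript of 5741 nt, inside the coding sequence. Over all tested genes with a transcript, 2.6% held at least 1 such window and 0.319% held at least 6. EIF1AX, EIF2S1, EIF3A and EIF4G3 held none in the longest and the MANE Select transcript, the only ones scanned.

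EIF4G3 held the longest run of the members over the gene body, 22 nt (chr1:20811255-20811276, minus strand). No single annotated exon contains this run in full, and the label intron below means only that. Whether part of it is exonic, and whether it includes the 16-nt run named below, was not examined. Its gene body spans chr1:20806292-21177285 and held 4 runs of at least 12 nt, against 2 in EIF5B. Of the 14751 genes, 0.698% held a run of 22 nt or more, a share not matched for gene length. One of its annotated transcripts holds a run of 16 nt, against 8 nt in the longest transcript. In EIF5B the longest run over the gene body was also 15 nt and ended at the same base as the exonic one, since the last bases of the intron continue the repeat (chr2:99371654-99371668).
EIF4G3, intron: AGAAGAAGAAGAAGAAGAAGAA

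EIF5B (ENSG00000158417) had 126 and 97.0 CPM in anti-GAA replicates 1 and 2, and 252 and 369 CPM in control replicates 1 and 2. Both anti-GAA libraries lay under both controls, and the lower control was 2.00 times the higher anti-GAA library. The group means were 112 ± 20.7 CPM with the anti-GAA ASO and 311 ± 82.4 CPM with the control ASO (SD, n = 2 each). The fitted log2 fold change was −1.48 (SE 0.26), a level of 35.9% of control. The size differed between the replicate numbers, with a log2 difference of −0.998 between the libraries numbered 1 and −1.93 between those numbered 2. Control replicate 2 was 1.46 times control replicate 1, and leaving out either control moved the fitted value to −1.17 without replicate 2 and to −1.73 without replicate 1.

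The deposited counts behind these values were 1250 and 1726 in the anti-GAA libraries against 3870 and 6255 in the controls. On the opposite strand the EIF5B locus overlaps the DNA polymerase gene REV1, at 6.29 to 9.39 CPM, and the thioredoxin-domain gene TXNDC9, at 22.6 to 27.1 CPM. Their fitted log2 fold changes were −0.21 (SE 0.30) and 0.19 (SE 0.20), and over the 4 libraries they held 470 and 1496 counts.

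Among the eIF4G scaffolds, EIF4G3 (ENSG00000075151), a paralogue of EIF4G1, had 21.3 and 28.0 CPM in the anti-GAA libraries against 39.1 and 45.9 CPM in the controls. The groups did not overlap, and the fitted log2 fold change was −0.78 (SE 0.23), or 58.2% of control. Its differences by replicate number were −0.87 and −0.71, closer to each other than those of EIF5B. EIF4G2 (ENSG00000110321), an eIF4G relative that lacks the eIF4E-binding part, had 345 and 351 CPM in the anti-GAA libraries against 475 and 357 CPM in the controls. The lower control exceeded the higher anti-GAA library by a factor of 1.02 only, and the fitted value was −0.26 (SE 0.21). EIF4G1 (ENSG00000114867), the main scaffold and the holder of the longest run, had 275 and 176 CPM in the anti-GAA libraries against 329 and 208 CPM in the controls. Here the groups overlapped, since anti-GAA replicate 1 exceeded control replicate 2. The fitted value of EIF4G1 was −0.25 (SE 0.31), with differences of −0.26 and −0.24 by replicate number. EIF4G2 overlaps CTR9 on the other strand, which stood at 161 to 180 CPM with a fitted value of −0.05 (SE 0.19).

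Of the subunits of eIF2, which carries the initiator tRNA, EIF2S2 (ENSG00000125977), the beta subunit, had 370 and 290 CPM in the anti-GAA libraries against 431 and 386 CPM in the controls. The lower control was 1.04 times the higher anti-GAA library, and the fitted log2 fold change was −0.31 (SE 0.21). EIF2S1 (ENSG00000134001), the alpha subunit that stress kinases phosphorylate, had 346 and 304 CPM in the anti-GAA libraries against 347 and 278 CPM in the controls. These groups overlapped, with a fitted value of 0.06 (SE 0.21). The difference between these subunits was not tested. Counts of EIF2S2 are uncertain because 7 processed copies are counted as genes of their own, with a sum of counts of 10.9% of that of EIF2S2. The copy EIF2S2P4 held 2085 of these 2391 counts.

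The factors of start codon recognition showed differences within 1 SE of 0. EIF5 (ENSG00000100664), which stimulates GTP hydrolysis by eIF2, had 549 and 360 CPM in the anti-GAA libraries against 503 and 364 CPM in the controls. Its fitted log2 fold change was 0.07 (SE 0.27), and it holds 1 window of 18 matches. EIF1AX (ENSG00000173674), the eIF1A of the X chromosome, had 93.3 and 118 CPM in the anti-GAA libraries against 106 and 109 CPM in the controls, with a fitted value of −0.03 (SE 0.21). Its processed copy EIF1AXP1 had a sum of counts of 20.4% of that of EIF1AX, so reads of the pair may have been split.

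Of the eIF3 subunits among the members, EIF3A (ENSG00000107581), the largest subunit, had 290 and 148 CPM in the anti-GAA libraries against 212 and 195 CPM in the controls. The anti-GAA libraries lay on either side of the controls, and the fitted value was 0.10 (SE 0.32). EIF3C (ENSG00000184110) had only 5 and 6 counts in the anti-GAA libraries against 6 and 5 in the controls, and was the member that did not pass the filter. EIF3CL, a nearly identical neighbour on chromosome 16, had 0.202, 0.393, 0.065 and 0.413 CPM in anti-GAA replicates 1 and 2 and control replicates 1 and 2. Reads that match both genes equally cannot be assigned to one of them, and how such reads were counted is not given. These low counts may therefore not measure the eIF3c mRNA, which was not tested. No fold is given for either gene.

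**Figure D1:**
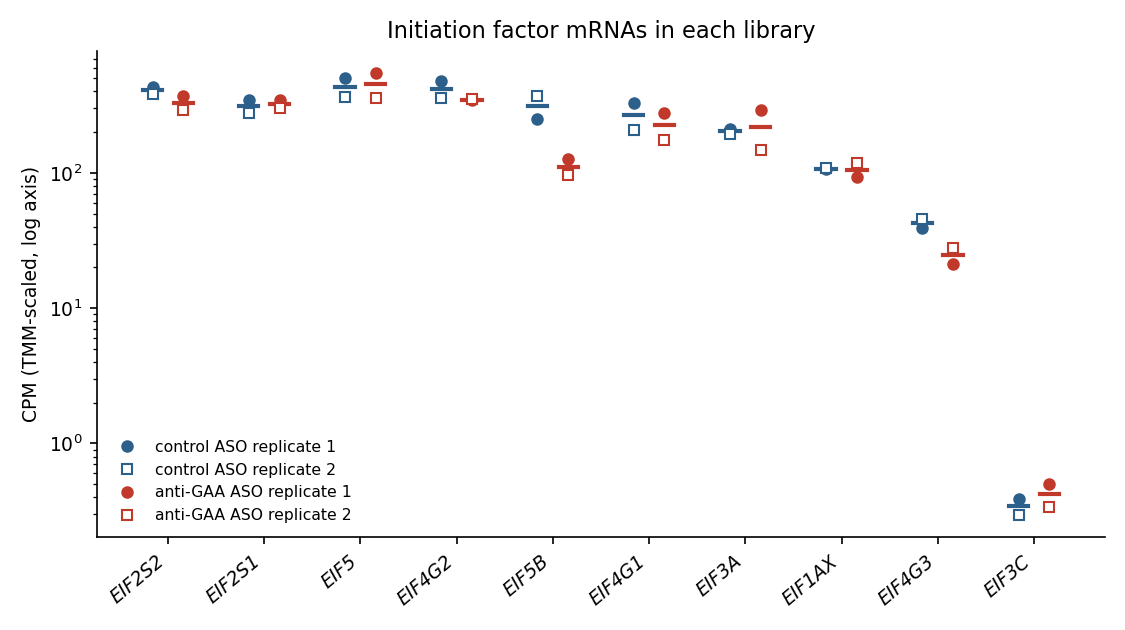
CPM scaled by TMM factors (y axis, log scale) of the 10 members in each library, with control ASO in blue, anti-GAA ASO in red, replicate 1 as filled circles, replicate 2 as open squares and the group mean as a bar. EIF5B and EIF4G3 show the widest gaps between the groups, and EIF3C lies between 0.295 and 0.505 CPM.

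Of the 9 tested members, 4 (EIF5B, EIF4G3, EIF4G2 and EIF2S2) had both anti-GAA libraries under both controls, where 16.9% of all tested genes did, and 0 of the 9 had both above, where 15.5% did. Because the choice of EIF5B used this comparison, nothing is read from that count. The median fitted log2 fold change of the 9 was −0.25, and −0.14 for the 8 without EIF5B, beside 0.01 for all tested genes. By edgeR's quasi-likelihood test with Benjamini-Hochberg adjustment, 0.0% of the tested genes (0 of 15116) had an adjusted p under 0.05. At an unadjusted p under 0.05, edgeR placed 3.46% of tested genes lower and 1.02% higher. DESeq2 called 3 genes lower (0.0198%) and 0 higher. Its unadjusted p was under 0.05 for 310 lower and 103 higher genes.

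The level of EIF5B among the factors can be compared only per length of RNA, as TPM, a share of all transcripts computed from the total exon length of each gene. In the controls EIF5B was at 76.4 and 126 TPM, the 5th of the 10 members by group mean. Its range there overlapped those of EIF4G2 (113 to 133 TPM), EIF5 (118 to 144 TPM) and EIF4G1 (64.2 to 89.5 TPM). With the anti-GAA ASO it was at 35.5 and 30.5 TPM, the 8th of 10, and its range overlapped with no other member. The nearest above it was then EIF1AX, at 46.7 and 65.8 TPM, and EIF4G3 followed at 3.96 and 5.82 TPM.

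EIF2S2 led in both groups, at 402 and 407 TPM in the controls and 319 and 280 TPM with the anti-GAA ASO. Next came EIF2S1 at 141 to 155 TPM in the controls, which overlapped EIF5. EIF3A at 71.0 to 74.1 TPM lay within the range of EIF4G1, and EIF1AX at 56.9 to 66.8 TPM overlapped EIF4G1 but not EIF3A. EIF4G3 was the lowest tested member in both groups, at 7.84 to 10.4 TPM in the controls.

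**Figure D2:**
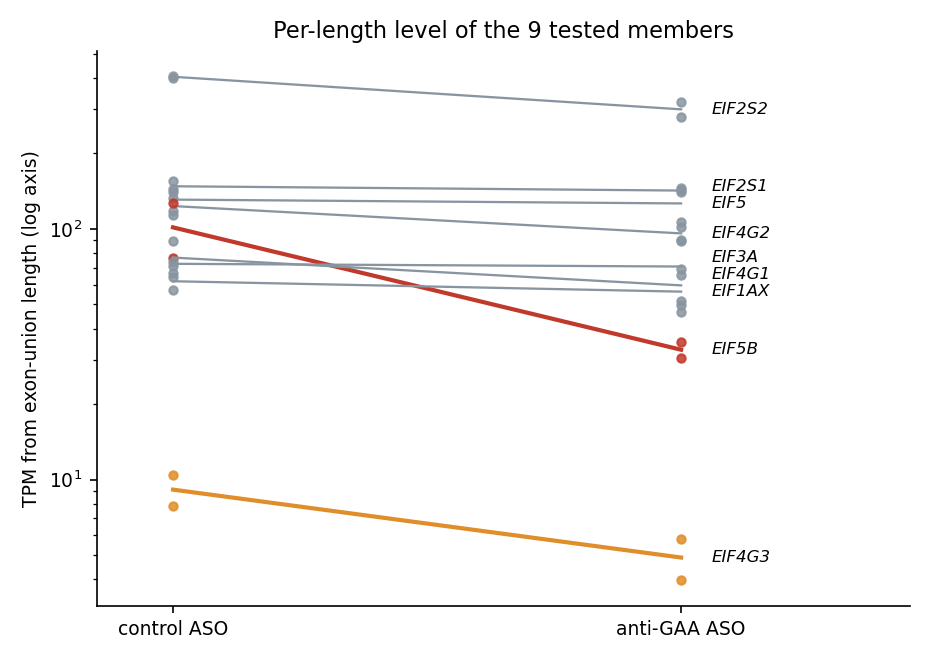
TPM from the exon length of each gene (y axis, log scale) for the 9 tested members with the control ASO and the anti-GAA ASO, with dots for the 2 libraries of each group and lines between the group means. EIF5B (red) goes from the 5th to the 8th place and EIF4G3 (orange) stays lowest of the 9.

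All 4 members with a run of at least 12 nt were fitted below 0, with a median of −0.28. Of the 5 tested members with shorter runs 2 were (median 0.06), as were 48.4% of all tested genes. EIF2S2, EIF4G2 and EIF4G1 had similar values of −0.31, −0.26 and −0.25, and EIF5B lay apart from them. Over all tested genes the median was −0.04 for runs of 9 to 11 nt, −0.11 for 12 to 14 nt and −0.39 for 18 nt or more. A relation of run length to fold change was not tested. EIF5B had the lowest fitted log2 fold change of the 70 tested genes with a run of 15 to 17 nt, a group with a median of −0.44 and quartiles of −0.74 and −0.08. In the same group EIF2S2 stood at place 40 and EIF4G1 at place 45 from the lowest, so both lay above the group's median. Among the 384 tested genes with at least 1 window of 18 or more matches, EIF5B stood at place 3, EIF4G2 at 152 and EIF4G1 at 154. EIF4G3, with no such window and a run of 8 nt in its longest transcript, stood at place 592 of the 11786 genes whose run there is under 9 nt. Those 11786 genes had a median of 0.03. One annotated transcript of EIF4G3 holds a run of 16 nt, and the windows of that transcript were not scanned. Among the 840 tested genes with a mean CPM at least that of EIF5B, EIF5B was the lowest. These places and medians use the comparison that chose EIF5B and are given as a description.

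**Figure D3:**
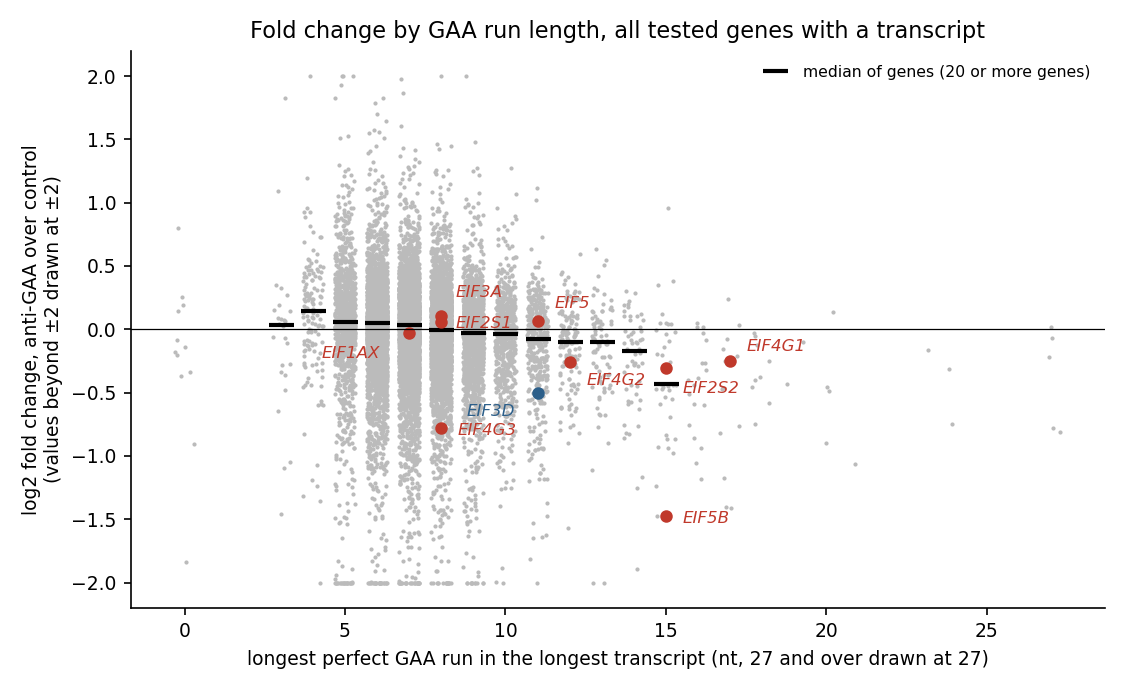
Fitted log2 fold change (y axis, anti-GAA over control) against the longest GAA run in the longest transcript (x axis, nt, jittered) for 14751 tested genes in grey, with the 9 tested members in red, EIF3D in blue and black bars for the medians of run lengths held by 20 or more genes. EIF5B lies far under the median at 15 nt, EIF2S2 and EIF4G1 do not, and EIF4G3 is low with a run of 8 nt in its longest transcript. Another annotated transcript of EIF4G3 holds a run of 16 nt.

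A list of 38 other initiation factors and their regulators was used to place the members. Of these, 36 were tested, 13 with a fitted log2 fold change below 0 and 23 above, with a median of 0.10. None passed an adjusted p of 0.05 by edgeR in either direction, nor by DESeq2. At an unadjusted p under 0.05 edgeR placed 1 lower (EIF3D) and 1 higher (EIF4A2), beside 3.46% and 1.02% of all tested genes. Both anti-GAA libraries lay under both controls for 6 of the 36 (16.7%) and above them for 8 (22.2%), beside 16.9% and 15.5% of all tested genes. Scaling to total counts instead of TMM lowered the median of all tested genes from 0.01 to −0.08, and with it 18 of the 36 lay below 0 and 18 above.

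EIF3D, the eIF3 subunit that can bind the cap of some mRNAs, had the lowest fitted value of the 36. It had 520 and 606 CPM in the anti-GAA libraries against 718 and 881 CPM in the controls, and the groups did not overlap. The log2 fold change was −0.51 (SE 0.21, edgeR adjusted p = 0.996), with differences of −0.46 and −0.54 by replicate number. EIF3D was also the only one of the 36 with a window of 18 or more matches, 5 in all. Its value did not reach the size seen for EIF5B, and the best window of both has the same letters. The perfect run of EIF3D was 11 nt, against 15 nt in EIF5B. The difference between these genes was not tested.

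The next lowest were EIF3E, an eIF3 subunit, at −0.35 (SE 0.68), and MCTS1, which acts with DENR in re-initiation, at −0.34 (SE 0.25). EIF3E had 19.2 and 6.58 CPM in the anti-GAA libraries against 25.4 and 6.90 CPM in the controls, so its libraries differed more within a group than between the groups. The 3 highest were EIF4A1 at 0.54 (SE 0.73), its paralogue EIF4A2 at 0.53 (SE 0.19) and EIF3B, a core eIF3 subunit, at 0.46 (SE 0.30), each with an edgeR adjusted p of 0.996. EIF4A2, an RNA helicase of eIF4F, had 309 and 347 CPM in the anti-GAA libraries against 238 and 218 CPM in the controls, without overlap. EIF4A1 was counted at only 0.506 to 1.82 CPM in the 4 libraries. How reads shared by genes were counted is not given, so such a low count may not measure its mRNA, and its place among the 36 is uncertain.

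By role, the mRNAs of eIF4F and cap recognition other than the eIF4G scaffolds were all fitted above 0 (11 of 11 tested, the uncertain EIF4A1 included, median 0.22), where 7802 of the 15116 tested genes were. For 5 of these 11 both anti-GAA libraries lay above both controls, against 15.5% of all tested genes. With scaling to total counts 10 of the 11 were above 0, and with 1 library left out at a time between 7 and 9 were. The 3 eIF4G members had fitted values of −0.25 to −0.78, of which EIF4G1 became 0.11 without control replicate 1 and 0.04 without anti-GAA replicate 2. The group listed under eIF2 and its exchange factor eIF2B held EIF2S3, EIF2A, EIF2D and EIF2B1 to EIF2B5. It leaves out the members EIF2S1 and EIF2S2, so it is not the eIF2 complex. Of these 8, 6 were below 0 with a median of −0.10. Without anti-GAA replicate 2, 3 of 8 were, with a median of 0.04, and without control replicate 1, 4 of 8 were. In all 4 libraries, 3 of the 8 (EIF2B1, EIF2B2 and EIF2B3) had both anti-GAA libraries under both controls, against 16.9% of all tested genes. The eIF3 subunits were divided, with 5 of 11 below 0 and a median of 0.05. Of the 6 factors of start codon recognition, subunit joining and recycling, 2 were below 0 (EIF1B and MCTS1).

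**Figure D4:**
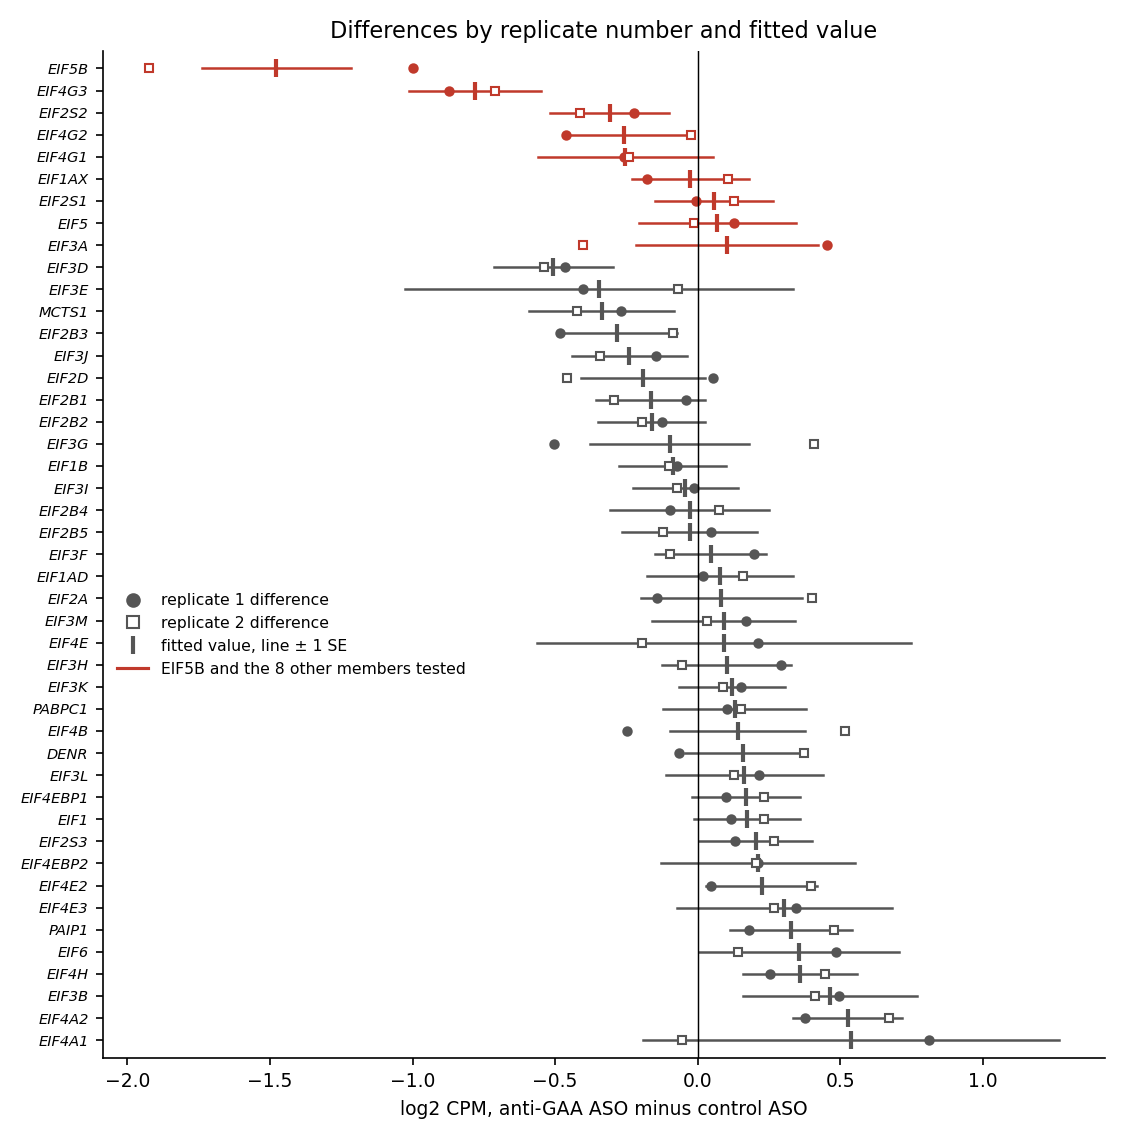
Log2 CPM difference, anti-GAA minus control (x axis), for libraries numbered 1 (filled circles) and 2 (open squares), with the fitted value as a tick and a line of ± 1 SE, for the 9 tested members (red) and 36 other initiation factors (grey). The 2 differences of EIF5B, −0.998 and −1.93, lie to the left of every other gene shown.

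The 5 genes whose pattern over the 4 libraries was most like that of EIF5B were NLRP1, ABCB1, MSH3, RPSAP47 and CHRNA10. Likeness was the Euclidean distance between log2 CPM values centred on each gene's mean, which was 0.16 for NLRP1 and 0.27 to 0.30 for the others, against a median of 1.63 over 13804 genes. NLRP1, an inflammasome sensor, had 3.03 and 2.70 CPM in the anti-GAA libraries against 6.65 and 9.73 CPM in the controls. Its fitted log2 fold change was −1.52, and that of ABCB1, a drug efflux pump, was −1.65. None of the 5 is an initiation factor. Their longest runs were between 5 and 11 nt, and none held a window of 18 or more matches.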

How the data were processed

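Reads had been trimmed (Trimmomatic), aligned to hg19 (STAR) and assigned to Ensembl genes (featureCounts) by the authors, who discarded alignments to unplaced contigs. The annotation release, the strand setting and the handling of reads shared by genes are not given in the sources used here. The labels name a total RNA kit and the study's methods an mRNA kit. The deposited values are raw counts per gene, with 4 columns mapped by title. No column was left out.

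Genes were filtered with filterByExpr, scaled by TMM and fitted with edgeR 4.0.16 (R 4.3.3, limma 3.58.1), anti-GAA ASO over control ASO, with p-values adjusted over all 15116 tested genes. CPM values use the TMM-scaled totals. The standard error comes from the fitted model. An exact permutation test of 2 against 2 libraries cannot go below a two-sided p of 0.333, so none was run. The script was tested on simulated data with a dispersion (spread of counts beyond sampling) of 0.0148, that of the fit with the replicate block. The simulation held no effect of replicate number. The fit without the block had a dispersion of 0.0549, so the simulation does not measure the error rates of the reported fit. Alternatives were DESeq2 1.42.0, other scalings and filters, the replicate block, length and GC offsets (mgcv 1.9.3) and leaving out each library.

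GAA runs and TPM lengths came from GENCODE 44 on GRCh38, matched by gene ID to 52181 of 63677 genes. That build differs from that of the counts, and no coordinate was converted. The members and lists were chosen with earlier results of these data known. Genes named from the lists were those passing an adjusted p of 0.05, the 3 lowest and 3 highest fitted values of the other initiation factors (2 and 2 for elongation and termination factors) and EIF3CL. EIF2B1, EIF2B2, EIF2B3 and EIF1B were named after their values were seen. The others of the eIF2 and eIF2B group were named to give its content.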

Additional observations from a re-analysis of the deposited data

How the results depend on the processing

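The fitted log2 fold change of EIF5B was negative in all 12 alternatives, from −1.73 to −1.17, the range also reached by leaving out 1 library. EIF4G3, EIF2S2 and EIF4G2 were also negative in all 12, at −0.99 to −0.59, −0.49 to −0.14 and −0.44 to −0.04. EIF4G1 was positive in 2 of 12, and EIF5, EIF1AX, EIF2S1 and EIF3A changed sign in between 2 and 4. The count of members with all anti-GAA libraries under all controls was 4 to 7 when 1 library was left out. The 7 came without anti-GAA replicate 1, where 1 anti-GAA library remains and 5058 of 15986 tested genes had such a gap. In the other omissions, between 4845 of 15674 and 5710 of 15874 tested genes had it, so nothing is read from the larger counts. With the length and GC correction it was 3 members, beside 2126 of 14751 tested genes. The members' median ranged from −0.45 to −0.04 over those omissions.

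The median of the other initiation factors became −0.00083 with scaling to total counts, 0.154 with the length and GC correction and 0.153 with the replicate block added to it, and was 0.0085 to 0.129 when 1 library was left out, the lowest without anti-GAA replicate 1. The number of these called lower was 0 in every alternative, and the number called higher was 1 (EIF4A2, log2 fold change 0.62) with the replicate block and the length and GC correction together. EIF3E reached 0.88 without control replicate 1 and 0.25 without anti-GAA replicate 2, within −1.29 to 0.88 over all omissions, and EIF4A1 reached −0.55 without anti-GAA replicate 1, within −0.55 to 1.27. The cause of these shifts was not tested. EIF5B's longest run was 15 nt in any transcript and over the gene body, and its best 21-nt window matched the ASO target at 19 positions.

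The groups share replicate numbers without a stated batch. With the replicate block EIF5B was at −1.47 and the median of the other factors at 0.12. Deviations of same-numbered libraries from their group means correlated at r = 0.564 across genes. With 2 libraries per group the crossed numbers give the same value with the opposite sign, so this is 1 value and no separate check. The replicate block raised edgeR's calls over all tested genes from 0 to 207 lower (1.37%) and 51 higher (0.337%), with 0 of the 36 other factors among them. Without a filter on low counts edgeR called 111 genes lower and 5 higher, and without control replicate 1 it called 16 and 2, with none of the 36 other factors in either. Where 1 library of a group was left out, the lone library was assumed to vary like the other group. With 2 libraries per group, differences of the size seen for EIF2S2 and EIF4G2 are close to their standard errors.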

Other observations

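The factors that act after initiation were described in the same way. Of 13 mRNAs of elongation and termination factors, 11 were tested, with 4 fitted below 0, 7 above and a median log2 fold change of 0.14. None passed an adjusted p of 0.05 by edgeR or DESeq2, and 0 had an unadjusted p under 0.05 by edgeR in either direction. Both anti-GAA libraries lay under both controls for 1 of the 11 (EEF1B2) and above them for 3 (EEF2, ETF1 and GSPT1), beside 16.9% and 15.5% of all tested genes. EEF1B2 and EEF1D, subunits of the exchange factor of eEF1A, had the lowest values at −0.22 (SE 0.19) and −0.21 (SE 0.22). EEF1A2, an isoform of the tRNA-delivering eEF1A, and EIF5A, the hypusine-carrying elongation factor, had the highest at 0.43 (SE 0.25) and 0.38 (SE 0.27). EEF1G and GSPT2 did not pass the filter, with 0.118 and 0.059 CPM at most in any library. Because the counting of reads shared by genes is not given, these low counts do not show that the mRNAs were absent. None of the 13 mRNAs held a window that matched 18 or more of 21 positions of the ASO target. EEF2, ETF1 and GSPT1 were named after their values were seen.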
